A study of Mus musculus with 39 samples.

Results

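Interferon-inducible genes are the genes that cells switch on when interferons, the signalling proteins of the antiviral response, bind their receptors. Kinases bound to the receptors then activate transcription factors that bind interferon-stimulated response elements in target promoters. Many of these genes also have a basal level in uninfected liver, in hepatocytes and in the Kupffer and endothelial cells of the sinusoids. The 8 genes described here are Ifitm3, Ifitm1, Ifitm2, Irf7, Isg15, Ifit1, Ifit3 and Ifi27l2b. They were picked by symbol, taking for each gene the probe that the platform annotation assigns to that gene alone and, where there were several, the one with the highest mean. 7 of the 8 have such a probe, among 13840 genes with one on the array. Ifit3 lies only on a probe shared with Ifit3b and has no value here. The choice of genes rests on measured values: Ifitm3 and Ifi27l2b stood out in wild-type livers with either dose of PFOA and with pirinixic acid, in PPARα-null livers with PFOA at 3 mg/kg, in the difference between the genotypes at that dose, and between the doses in wild type. Values of the 7 genes in these 6 comparisons are therefore given as a description without a test.

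The livers came from adult male mice of the 129SV background, either lacking PPARα, the fatty acid receptor of the nucleus, or wild type. Mice of each genotype were gavaged for 7 days with deionised water, with 1 or 3 mg/kg of PFOA (the ammonium salt of perfluorooctanoic acid) in that water, with pirinixic acid, a synthetic PPARα agonist that the labels list under a Wyeth code, at 50 mg/kg in 0.5% methylcellulose, or with methylcellulose alone. Each of the 10 groups has 4 arrays, except methylcellulose in wild type, which has 3, for 39 arrays in all. The null allele is present in every cell of the mouse, so a comparison of genotypes covers all liver cell types at once. In such bulk tissue, fewer cells of a type and less RNA per cell cannot be told apart.

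Values are log2 signals of single probes, with 1 median (9.14) for every array, so levels of different genes are not compared. The 7 hepatocyte markers measured, among them Alb and Ttr, had means of 17.7 to 20.9, all above the median of the tested probes (10.09). Of 8 lymphocyte markers 2 were above it, and of 4 cholangiocyte markers 0 were. The arrays also fell into a larger set of 23 and a smaller set of 16, separated by 76 probes whose signal shifts together. All 4 arrays of wild-type mice with pirinixic acid were in the larger set, and each of the other groups had arrays in both. One array went against its label. Replicate 3 of wild type with PFOA at 1 mg/kg had a Cyp4a14 level of 11.6, against 20.2 to 20.3 on the other 3 arrays of its group and 11.4 to 12.4 in null mice at that dose. It also had an Ehhadh level of 15.9, against 20.01 to 20.31 in its group. Cyp4a14 and Ehhadh are classical PPARα targets. It was kept under its label, and several results that rest on it are given with and without it. The variance shares and the genes nearest to Ifitm3 and Ifi27l2b are given only with it.

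4 of the genes lie on chromosome 7 of GRCm38.p6. Ifitm2 (chr7:140954837-140959686), Ifitm1 (chr7:140967429-140969827) and Ifitm3 (chr7:141009590-141010744) sit in 1 cluster, with 54.8 kb between the starts of Ifitm2 and Ifitm3, and Irf7 (chr7:141263183-141266499) starts 253.6 kb beyond Ifitm3. Isg15 is at chr4:156199424-156200818, Ifit1 at chr19:34640889-34650009 and Ifi27l2b at chr12:103450898-103457223. The 250 bases before the transcript start were available from RefSeq for 6 of the 7 genes, and none for Ifi27l2b. For Ifitm2 (chr7:140955962-140956211) and Ifitm1 (chr7:140967826-140968075) this window lay inside the gene span given above. For Irf7 (chr7:141266425-141266674) it overlapped the end of the span. What was found or not found for these genes refers to those starts, not to the outer end of the span. The core of the interferon-stimulated response element, a pair of GAAA half-sites with 2 bases between them, searched on both strands, was in 3 of these 6 promoters, against 2.98% of 32851 mouse promoters of that length. Isg15 held 3 overlapping copies between 78 and 57 bases before its start. Ifit1 held 2 copies on the opposite strand, 104 to 95 and 85 to 76 bases before its start, and Ifitm2 held GAAAAGGAAA 46 to 37 bases before its start. The letters were not found in this window of Ifitm3, Ifitm1 or Irf7. Neither the gamma-activated site TTCNNNGAA (7.02% of promoters) nor the peroxisome proliferator response element as a perfect direct repeat of AGGTCA with 1 base between (0.0335% of promoters) was found in any of the 6. The last 120 bases before the start follow for the pair with repeated copies and for Ifitm3, the gene of the set with the largest fall in signal, which has none. They are written 5′ to 3′ on the strand of the gene, from RefSeq GRCm38.p6, with the response element core in capitals. Isg15 is on the minus strand (chr4:156200819-156200938), Ifit1 on the plus strand (chr19:34640769-34640888) and Ifitm3 on the minus strand (chr7:141010745-141010864).
Isg15: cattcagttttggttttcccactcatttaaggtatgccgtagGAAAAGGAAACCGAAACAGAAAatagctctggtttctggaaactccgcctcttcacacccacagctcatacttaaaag
Ifit1: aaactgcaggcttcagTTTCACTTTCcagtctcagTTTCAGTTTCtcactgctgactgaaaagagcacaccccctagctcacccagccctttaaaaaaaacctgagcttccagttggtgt
Ifitm3: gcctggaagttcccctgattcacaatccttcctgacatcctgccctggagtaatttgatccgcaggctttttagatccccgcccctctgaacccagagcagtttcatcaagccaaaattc

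In wild-type livers the IFITM genes had lower signal with PFOA and with pirinixic acid, and Ifi27l2b had higher signal with both. Ifitm3, a membrane protein that blocks the entry of enveloped viruses from endosomes, had log2 signals of 18.79, 18.85, 18.84 and 18.66 with water, 17.71, 17.25, 18.65 and 17.23 with PFOA at 1 mg/kg, and 16.20, 16.63, 16.27 and 16.35 at 3 mg/kg. The 3 mg/kg arrays lay below all arrays of both other groups. At 1 mg/kg every array was also below every water array, but replicate 3 came within 0.02 of the lowest of them on this scale. With pirinixic acid it had 16.48, 16.39, 15.85 and 15.83, against 18.91, 18.36 and 18.57 with methylcellulose. These groups did not overlap. Ifitm3 differed from its vehicle by -2.43 ± 0.21 (SE) with PFOA at 3 mg/kg, or 5.37-fold lower, and by -1.08 ± 0.21 at 1 mg/kg, or -1.39 ± 0.18 without replicate 3. With pirinixic acid it was -2.47 ± 0.23, or 5.55-fold lower.

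Ifitm1, the cell-surface member of the same antiviral family, followed the same order at a smaller size. It had 17.07, 16.63, 16.83 and 16.76 with water, 15.82, 15.79, 16.94 and 15.83 with PFOA at 1 mg/kg, and 14.85, 15.46, 15.30 and 15.20 at 3 mg/kg. Of the lower-dose arrays only replicate 3 reached the water range. Ifitm1 had 15.37, 15.11, 14.98 and 14.85 with pirinixic acid, against 16.88, 16.64 and 16.74 with methylcellulose, with no overlap. The differences were -0.72 ± 0.19 at 1 mg/kg (-1.005 ± 0.16 without replicate 3), -1.62 ± 0.19 at 3 mg/kg and -1.68 ± 0.21 with pirinixic acid. A second probe of Ifitm1, with group means of 8.67 to 9.83 around the median of all probes, gave 0.52, -0.64 and -0.42 for these comparisons.

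Ifitm2, which restricts viruses in late endosomes, was lower by less. With PFOA at 3 mg/kg it had 16.64, 17.27, 17.59 and 16.80, against 18.46, 17.97, 17.89 and 18.17 with water, a difference of -1.05 ± 0.24. Pirinixic acid arrays of Ifitm2 had 17.66, 16.69, 17.09 and 16.60, against 18.10, 18.14 and 18.14 with methylcellulose, a difference of -1.12 ± 0.26. Neither pair of groups overlapped. The lower dose differed by -0.46 ± 0.24, or -0.71 ± 0.23 without replicate 3, which at 18.43 was again the highest of its group. The probe sequences were not used here, so how far a probe of 1 IFITM gene also reads the RNA of its paralogs was not tested, and neither was this for Ifi27l2b and its relatives.

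Irf7, the transcription factor that amplifies interferon alpha production, had 8.91, 9.40, 7.90 and 9.82 with PFOA at 3 mg/kg, against 10.90, 10.66, 10.54 and 10.61 with water. Its 4 treated arrays were spread over almost 2 log2 units, all below the water arrays, and the difference was -1.67 ± 0.33. On the pirinixic acid arrays Irf7 had 10.21, 9.74, 8.22 and 9.71, against 11.42, 10.72 and 10.15 with methylcellulose, a difference of -1.29 ± 0.36 with a small overlap. Isg15, the ubiquitin-like modifier, and Ifit1, which binds foreign RNA by its cap, differed by less than 2 standard errors in each wild-type comparison. For Isg15 at 1 mg/kg this rested on replicate 3, with -0.25 ± 0.35 on all arrays and -0.70 ± 0.32 without it. Isg15 had 11.58, 12.28, 11.95 and 11.20 with PFOA at 3 mg/kg, against 12.30, 12.13, 12.59 and 12.09 with water (-0.52 ± 0.35), and -0.51 ± 0.38 with pirinixic acid. Ifit1 had 9.02, 9.71, 9.87 and 9.37 with PFOA at 3 mg/kg, against 10.19, 10.13, 10.56 and 9.35 with water (-0.56 ± 0.32), and -0.62 ± 0.35 with pirinixic acid. With all arrays kept, the treated and vehicle arrays of both genes overlapped in each of these comparisons.

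Ifi27l2b, one of the small hydrophobic proteins of the mouse Ifi27 family, went the other way. In wild type it had 10.11, 9.59, 10.30 and 10.42 with water, 13.00, 12.70, 12.93 and 13.41 with PFOA at 1 mg/kg, and 14.45, 13.83, 14.87 and 14.49 at 3 mg/kg. The 3 groups stood apart, and replicate 3 at 1 mg/kg was within the range of its group. Ifi27l2b had 12.36, 13.33, 14.43 and 12.71 with pirinixic acid, against 10.62, 9.88 and 10.28 with methylcellulose. The differences from vehicle were 2.90 ± 0.40 at 1 mg/kg, 4.30 ± 0.40 at 3 mg/kg (19.7-fold higher) and 2.95 ± 0.43 with pirinixic acid (7.71-fold higher).

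**Figure D1:**
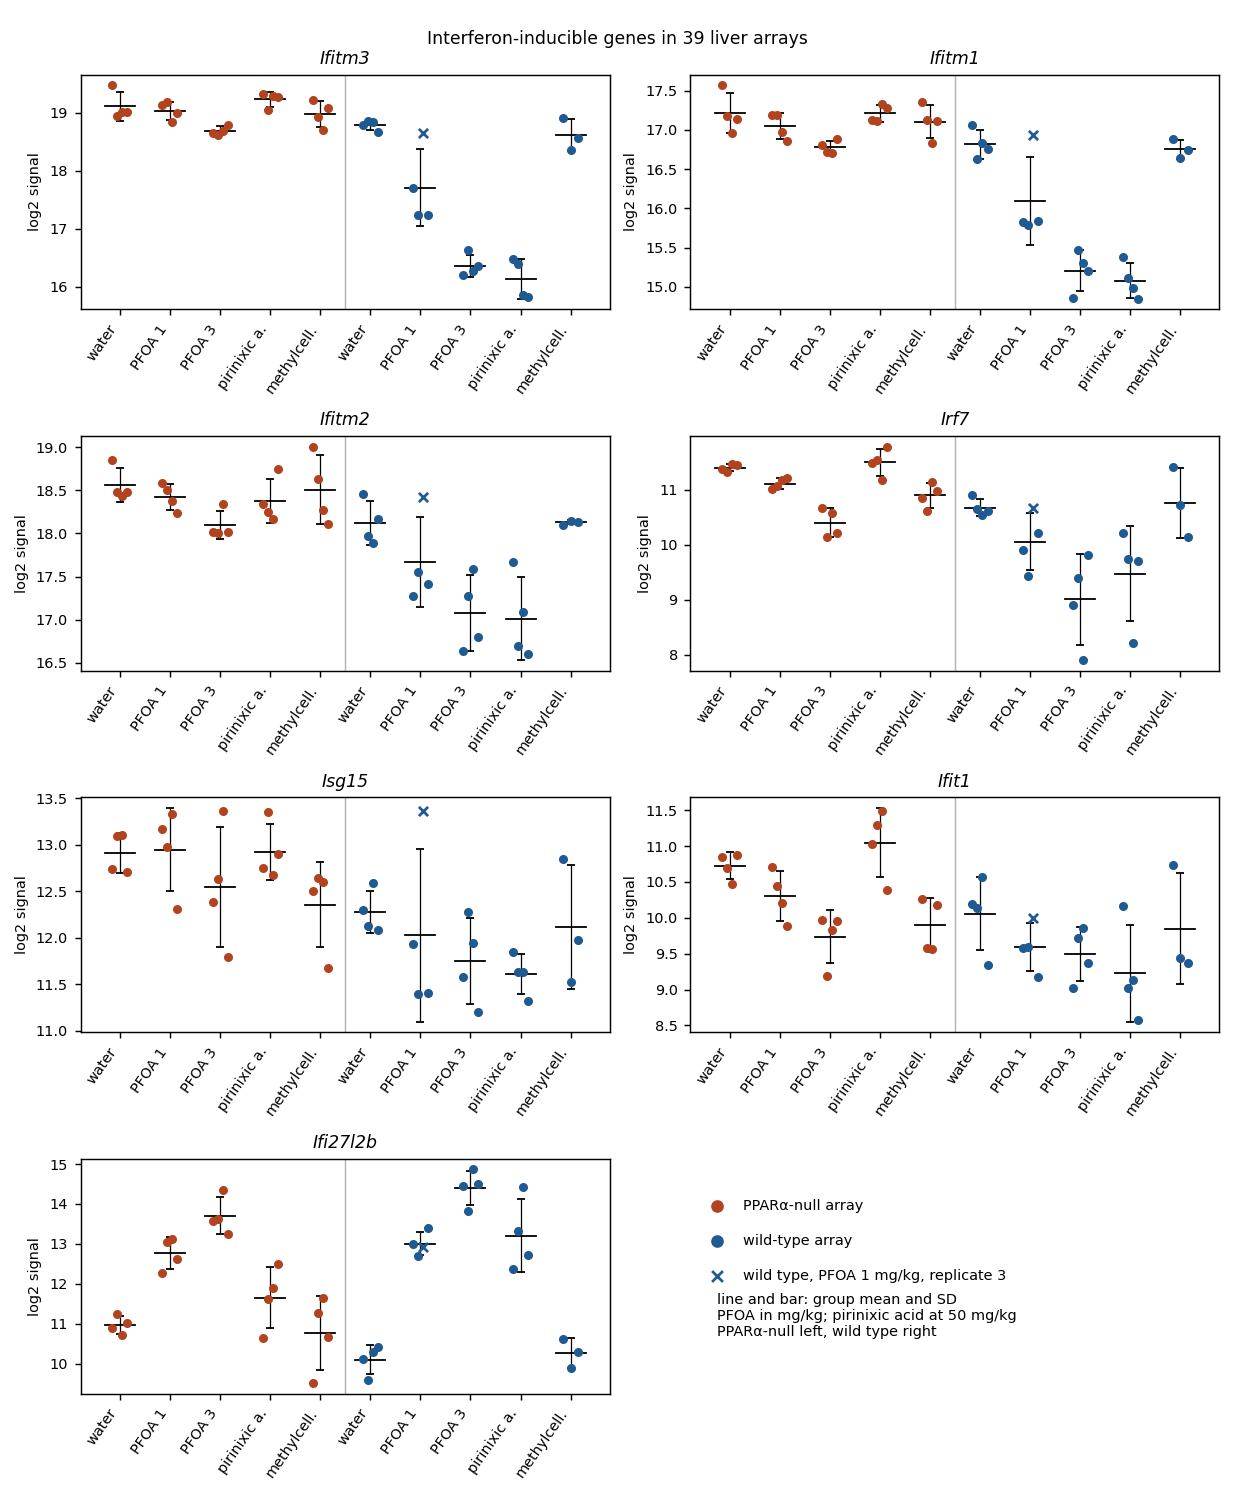
Log2 signal (vertical axes) of the 7 genes on each of the 39 arrays (points), by group (horizontal axes, null mice left and wild-type mice right), with the group mean and SD as line and bar. The cross is replicate 3 of wild type with PFOA at 1 mg/kg. Ifitm3 in wild type lies at 16.20 to 16.63 with PFOA at 3 mg/kg, against 18.66 to 18.85 with water, and Ifi27l2b at 13.83 to 14.87, against 9.59 to 10.42.

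Counted over the set, 6 of the 7 genes were below their vehicle in each of the 3 wild-type comparisons. With PFOA at 3 mg/kg, 4 had a lower level with an adjusted p under 0.05 (limma with Benjamini-Hochberg adjustment over all probes), where 2.46% of all 25295 tested probes did, and Ifi27l2b was higher past that threshold, where 3.37% were. With pirinixic acid the counts were again 4 lower, where 3.3% of probes were, and 1 higher, where 2.8% were. At 1 mg/kg the counts were 1 lower (0.0316% of probes) and 1 higher (0.241%). Without replicate 3 of that group 2 genes were lower past the threshold, and without replicate 2 or 4 of it 0 were. These comparisons chose the genes, and nothing is read from the counts. The median difference of the 7 genes was -1.05 with PFOA at 3 mg/kg and -1.12 with pirinixic acid, beside -0.02 and -0.03 for all tested probes. Differences between groups accounted for 95.1% of the variance of Ifitm3 over the 39 arrays, 92.4% of that of Ifitm1, 89.3% of that of Ifi27l2b, and 53.4% of that of Isg15, the lowest share of the 7.

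Some markers of liver cell types were also lower in the same wild-type groups. Of 9 Kupffer cell markers, 4 fell with pirinixic acid (Clec4f, Vsig4, C1qa and C1qb; median of the list -0.64), where 3.3% of all probes fell. With PFOA at 3 mg/kg 1 fell (Vsig4, -0.67 ± 0.18, adjusted p = 0.0212; median -0.52), where 2.46% of probes did. Clec4f, the lectin that marks Kupffer cells in mice, fell by 0.97 on the log2 scale with pirinixic acid (adjusted p = 0.00379). The summed signal of the list was 16.29 to 16.72 with pirinixic acid, against 17.08 to 17.33 with methylcellulose, and 16.25 to 16.48 with PFOA at 3 mg/kg, against 16.80 to 17.05 with water (log2 of the sum). Of 11 endothelial markers 5 fell with pirinixic acid, where 3.3% of probes did, with a median of -0.54 and a range of -1.17 to 1.27, and the sum was 16.67 to 16.98, against 17.22 to 17.46 with methylcellulose. With PFOA at 3 mg/kg the endothelial list went both ways: Stab2 (-0.47 ± 0.15, adjusted p = 0.0487) and Kdr (-0.41 ± 0.12, adjusted p = 0.0343) fell, where 2.46% of probes did, Lyve1 rose (1.52 ± 0.38, adjusted p = 0.0123), where 3.37% did, and the median was -0.08. Of the 7 hepatocyte markers 2 fell with PFOA at 3 mg/kg, where 2.46% of probes did. They were the plasma protein genes Fgb (-0.98 ± 0.18, adjusted p = 0.000801) and Ahsg (-0.81 ± 0.20, adjusted p = 0.0121), with 6 of 7 below 0 and a median of -0.41. With pirinixic acid only Ahsg fell (-0.87 ± 0.22, adjusted p = 0.0128), where 3.3% of probes did, with 7 of 7 below 0 and a median of -0.26. When single arrays were left out, 1 to 4 Kupffer and 1 to 7 endothelial markers fell with pirinixic acid, and 0 to 1 and 0 to 2 with PFOA at 3 mg/kg. The fewest with pirinixic acid were without replicate 2 of methylcellulose. The part of these markers in the interferon-gene values was not tested.

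In PPARα-null livers Ifitm3 lay between 18.62 and 19.47 in all 5 groups. It had 19.47, 18.94, 19.02 and 19.01 with water, 19.13, 19.19, 18.84 and 18.99 with PFOA at 1 mg/kg, and 18.64, 18.62, 18.68 and 18.80 at 3 mg/kg. At 3 mg/kg all 4 arrays were just below the water arrays, by -0.42 ± 0.21 in the mean. With pirinixic acid it had 19.31, 19.04, 19.28 and 19.28, against 19.22, 18.92, 18.70 and 19.08 with methylcellulose, and these overlapped. Neither the difference at 1 mg/kg (-0.08 ± 0.21, adjusted p = 0.9997) nor that with pirinixic acid (0.25 ± 0.21, adjusted p = 0.9999) passed the test. Ordered by mean, Ifitm3 ran from null with pirinixic acid (19.23) through null with water (19.11), PFOA at 1 mg/kg (19.03) and methylcellulose (18.98), wild type with water (18.79), null with PFOA at 3 mg/kg (18.69), wild type with methylcellulose (18.61), then wild type with PFOA at 1 mg/kg (17.71), PFOA at 3 mg/kg (16.36) and pirinixic acid (16.14). Each neighbouring pair in that order overlapped except wild type at 1 and 3 mg/kg, and Ifitm1 had its lowest 3 groups in the same order with the same gap. Wild type with PFOA at 1 mg/kg reached that with methylcellulose (18.36 to 18.91) only through replicate 3 (18.65). Its other arrays were at 17.23 to 17.71. For Ifitm1 that overlap also rested on replicate 3 (16.94, against 15.79 to 15.83 on the others).

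Ifi27l2b was higher with PFOA in null livers too. It had 10.90, 11.26, 10.71 and 11.03 with water, 12.28, 13.04, 13.13 and 12.63 with PFOA at 1 mg/kg, and 13.58, 13.63, 14.34 and 13.24 at 3 mg/kg. The 3 groups did not overlap, as in wild type. The difference at 3 mg/kg was 2.73 ± 0.40, which belongs to the comparisons that chose the gene. That at 1 mg/kg, 1.80 ± 0.40 with every treated array above every water array, did not pass the test (adjusted p = 0.209), in a comparison where 0.0119% of probes did. With pirinixic acid it had 10.63, 11.62, 11.89 and 12.49, against 9.52, 11.28, 11.64 and 10.68 with methylcellulose, with overlap (0.88 ± 0.40, adjusted p = 0.9999). Within the larger array set this difference was 0.56 and within the smaller set, with 2 treated arrays and 1 control, 2.04.

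The other genes had lower means than their vehicle in null livers with PFOA at 3 mg/kg, and some had higher means with pirinixic acid. None of these differences passed the threshold. With PFOA at 3 mg/kg, 5 of the 7 genes had every treated array below every water array, where 3.46% of probes did, and Ifi27l2b had every array above, where 2.47% did. None of the 5 passed the threshold for a lower level, which 0.0395% of probes did, and nothing is read from these counts, since the comparison chose Ifi27l2b. Irf7 had 10.67, 10.15, 10.57 and 10.22, against 11.37, 11.33, 11.46 and 11.45 with water (-0.9996 ± 0.33). Ifit1 had 9.97, 9.19, 9.84 and 9.95, against 10.86, 10.70, 10.47 and 10.88 (-0.99 ± 0.32), beside -0.56 in wild type. The gap between these 2 responses of Ifit1, -0.42 ± 0.45, was smaller than its standard error. S100a8, a neutrophil marker, rose by 7.44 ± 0.70 in these null livers (adjusted p = 8.07e-08), as 1 of 5 neutrophil markers, where 0.261% of probes rose. Of the 5 markers 3 were below 0, and the median was -0.28. The summed signal of the list, 14.98 to 16.59, against 11.49 to 11.98 with water, includes S100a8. Its part in the values was not tested.

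With pirinixic acid in null livers no probe on the array passed the test (0 of 25295, or 0%, by limma; 691 probes had an unadjusted p under 0.05, 2 of them for genes of the set). Ifit1 had 11.04, 11.29, 11.49 and 10.38, against 10.26, 9.58, 9.57 and 10.18 with methylcellulose. All 4 treated arrays were above the controls, and the difference of 1.151 ± 0.32 had an adjusted p of 0.9999. Irf7 had 11.48, 11.55, 11.18 and 11.79, against 10.85, 10.61, 11.14 and 10.98 (0.60 ± 0.33), and Isg15 had 12.75, 13.35, 12.67 and 12.90, against 12.50, 12.64, 12.60 and 11.68 (0.56 ± 0.35). Both also had no overlap, so that 3 of the 7 genes had every treated array above every control, where 1.32% of probes did. The methylcellulose controls of these genes were themselves below the water controls: Ifit1 by -0.83 ± 0.32 (adjusted p = 0.367), Isg15 by -0.56 ± 0.35 (adjusted p = 0.532) and Irf7 by -0.51 ± 0.33 (adjusted p = 0.550). At 1 mg/kg PFOA none of the 7 genes passed (0 lower, 0% of probes; 1 gene and 1003 probes at an unadjusted p under 0.05).

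**Figure D2:**
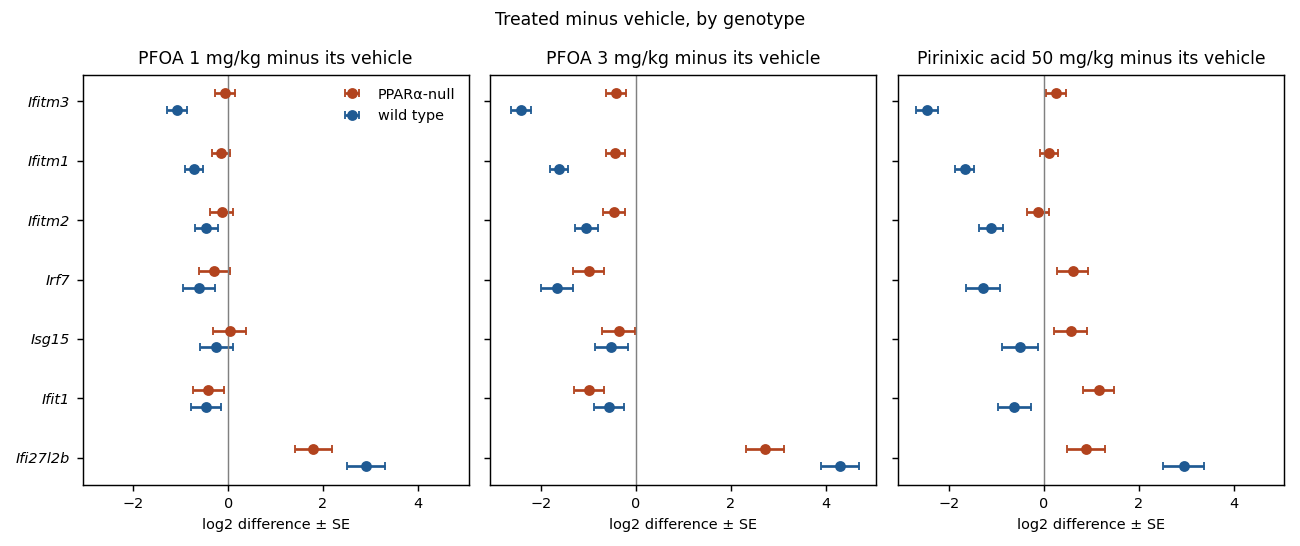
Log2 difference of treated minus vehicle (horizontal axes, mean ± SE) for the 7 genes in PPARα-null (orange) and wild-type (blue) mice, for PFOA at 1 and 3 mg/kg and pirinixic acid at 50 mg/kg. With pirinixic acid, Ifitm3 is at 0.25 in null mice and -2.47 in wild type, and Ifi27l2b is to the right of 0 in all panels.

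The difference between the genotypes was tested by subtracting the response of wild-type mice from that of null mice. For pirinixic acid, Ifitm3 and Ifi27l2b are given without a test, because the wild-type arm chose them. Of the 5 other genes 2 had a higher response in null mice past the threshold, where 0.696% of probes did, and 0 a lower one (0.542% of probes). Ifitm1 differed by 0.10 in null and -1.68 in wild-type mice, and the gap of 1.78 ± 0.28 passed the test (adjusted p = 0.00104; 0.000461 to 0.00600 when single arrays were left out). Irf7 differed by 0.60 in null and -1.29 in wild-type mice, a gap of 1.90 ± 0.49 (adjusted p = 0.0436), and it passed in only 2 of 15 fits that each left out 1 array, with an adjusted p of up to 0.146 in the others. Ifitm3 had the widest gap of the set, 2.72 ± 0.31, and Ifi27l2b was below 0 (-2.07 ± 0.59). Ifit1 (1.77 ± 0.47, adjusted p = 0.0532), Isg15 (1.07 ± 0.51, adjusted p = 0.316) and Ifitm2 (0.99 ± 0.35, adjusted p = 0.155) were above 0 without passing. The 7 wild-type arrays of these tests are also those on which Ifitm3 and Ifi27l2b were singled out. Over the 39 arrays Ifitm1 followed Ifitm3 at r = 0.988. The tests of the 5 other genes are therefore not independent of that choice, and nothing further is read from them.

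In the same contrast 2 of 9 Kupffer cell markers passed as higher, where 0.696% of probes did (0 to 5 markers when single arrays were left out, median of the list 1.02). The summed Kupffer signal in null livers was 16.94 to 18.01 with pirinixic acid, against 16.86 to 17.30 with methylcellulose. Vsig4 had a gap of 1.19 ± 0.26 (adjusted p = 0.0185). For PFOA at 3 mg/kg the gap was 2.001 ± 0.30 for Ifitm3 and 1.18 ± 0.27 for Ifitm1, the 2 genes past the threshold for a higher response in null mice (0.083% of probes). 14 of 16 fits that each left out 1 array kept only 1 gene past it. This comparison chose the genes, and nothing is read from these counts. For the lower dose 0 of the 7 genes passed, as did 0% of probes. Ifitm3 had a gap of 1.004 ± 0.30, and of 1.32 ± 0.24 without replicate 3 of wild type, given without a test since the wild-type arm chose the gene. That array had an Ifitm3 level of 18.65, against 17.23 to 17.71 on the other arrays of its group.

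Between the vehicle groups all 7 genes were higher in null than in wild-type mice, with medians of 0.64 with water and 0.35 with methylcellulose, and 0 passed the test in either vehicle (0.0553% and 0.0356% of probes did as higher; with water 4 of the 7 genes, and with methylcellulose 0, had an unadjusted p under 0.05). With methylcellulose the signs of Irf7 (0.13) and Ifit1 (0.05) turned when arrays were centred on silent genes. Irf7 was the clearest with water. It had 11.37, 11.33, 11.46 and 11.45 in null livers, against 10.90, 10.66, 10.54 and 10.61 in wild type, a difference of 0.73 ± 0.33 (adjusted p = 0.445) without overlap. Ifi27l2b (0.87 ± 0.40, adjusted p = 0.445), Isg15 (0.64 ± 0.35, adjusted p = 0.512) and Ifitm3 (0.32 ± 0.21, adjusted p = 0.587) also had no overlap with water. Ifitm1, Ifitm2 and Ifit1 overlapped. The share of all probes without overlap between these groups was not counted, so nothing is read from the overlaps.

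Whether the genes move together from animal to animal was tested apart from the groups that chose them, by correlating each array's deviation from its group mean. Over the 39 arrays 16 of 21 pairs had a positive Pearson r, and 5 passed at an adjusted p under 0.05 (100000 permutations of arrays within groups, two-sided, Benjamini-Hochberg over 21 pairs; 11 pairs at an unadjusted p under 0.05). Ifitm3 and Ifitm1 were the closest pair, with r = 0.856 (adjusted permutation p = 0.00021, from a p of 1e-05, the smallest that can be had) and rho = 0.783. Their r was 0.919 within the larger array set, 0.888 within the smaller, 0.757 without the 2 farthest arrays and 0.718 without replicate 3 of wild type at 1 mg/kg. Ifitm1 and Ifitm2 had r = 0.758 (adjusted permutation p = 0.0007) and rho = 0.661. Ifit1, on another chromosome, went with Ifitm1 at r = 0.546 (adjusted permutation p = 0.0007, rho = 0.596) and with Ifitm3 at r = 0.538 (adjusted permutation p = 0.00115, rho = 0.585).

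Ifitm2 and Isg15 (r = 0.523, adjusted permutation p = 0.0201) lost the call without replicate 3, at r = 0.339 and an adjusted permutation p of 0.165, and 4 pairs then passed. Irf7 had no pair past the threshold. Its r ran from 0.039 with Ifitm2 to 0.429 with Ifitm3 among the genes other than Ifi27l2b. Ifi27l2b did not go with the rest: its 6 pairs had a median r of -0.21 and none passed, with 0 also at an unadjusted p under 0.05, and its r with Ifitm3 was -0.294 (adjusted permutation p = 0.127). The 15 pairs without Ifi27l2b were all positive with a median of 0.501, which was 0.333 without replicate 3, 0.564 within the larger array set and 0.277 within the smaller. Without replicate 3, 14 of the 15 were positive, and Ifitm2 and Irf7 had r = -0.115. Within the smaller set, Ifitm3 and Isg15 (-0.149) and Isg15 and Irf7 (-0.086) were below 0. The probes of 1 array share its RNA and its labelling, and part of each r may come from that. Taking out the mean level of 583 probes of silent genes left the median at 0.430.

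**Figure D3:**
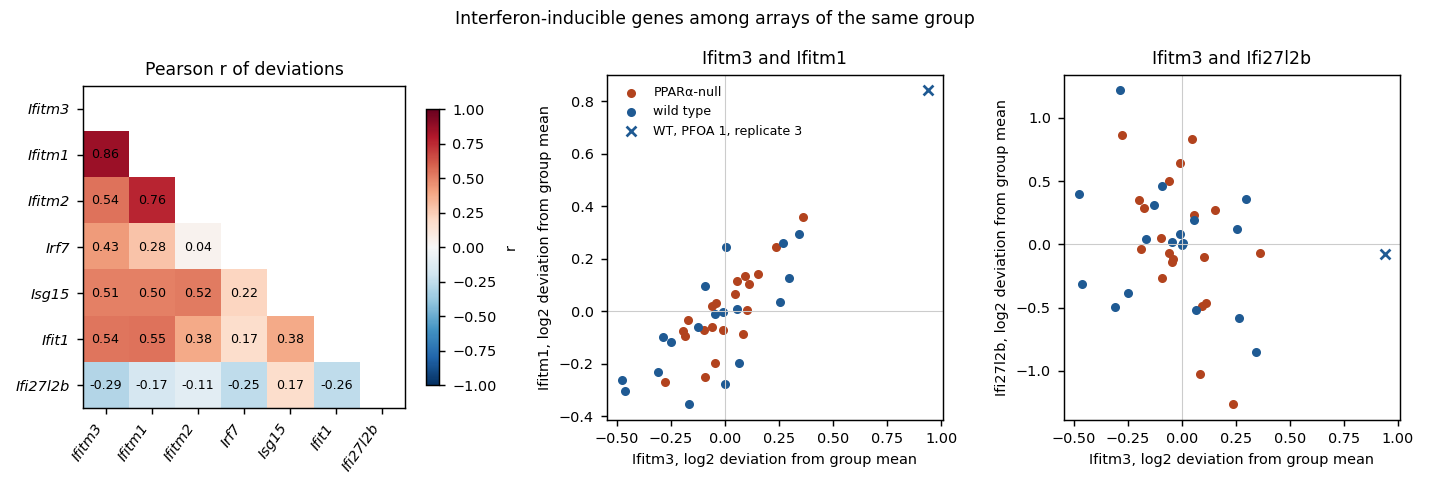
Left, Pearson r (colour and number) of the 21 gene pairs over deviations from the group mean on 39 arrays. Middle and right, deviations of Ifitm1 and of Ifi27l2b (vertical, log2) against those of Ifitm3 (horizontal, log2), with null arrays in orange and wild-type arrays in blue. Ifitm1 follows Ifitm3 (r = 0.856) and Ifi27l2b does not (r = -0.294).

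The chromosome 7 genes were set against their neighbours. Of 34 coding genes starting within 300 kb of Ifitm3, 21 were measured on all arrays, 4 of them from the set. The other 17 had differences of -0.55 to 1.07 in wild type with PFOA at 3 mg/kg, and 0 of 17 passed the test, where 5.82% of probes did. With pirinixic acid 1 of 17 passed, where 6.1% of probes did. It was Odf3, a sperm tail protein gene, which rose by 1.07. Ifitm5, the bone-specific relative that starts just beyond Ifitm2, on the side away from Ifitm3, had a difference of -0.30 with PFOA at 3 mg/kg and -0.65 with pirinixic acid. Both were short of the threshold, at a mean level of 8.35, below the median of all probes. Sigirr and Pkp3, which lie between Ifitm3 and Irf7, had 0.24 and 1.07 with PFOA at 3 mg/kg, also short of it. Around Ifi27l2b 5 other genes were measured. Serpina10, a plasma protease inhibitor, fell in both comparisons (-0.66 and -0.86), where 2.46% and 3.3% of probes fell. Prima1 rose with pirinixic acid (1.10), where 2.8% of probes rose.

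**Figure D4:**
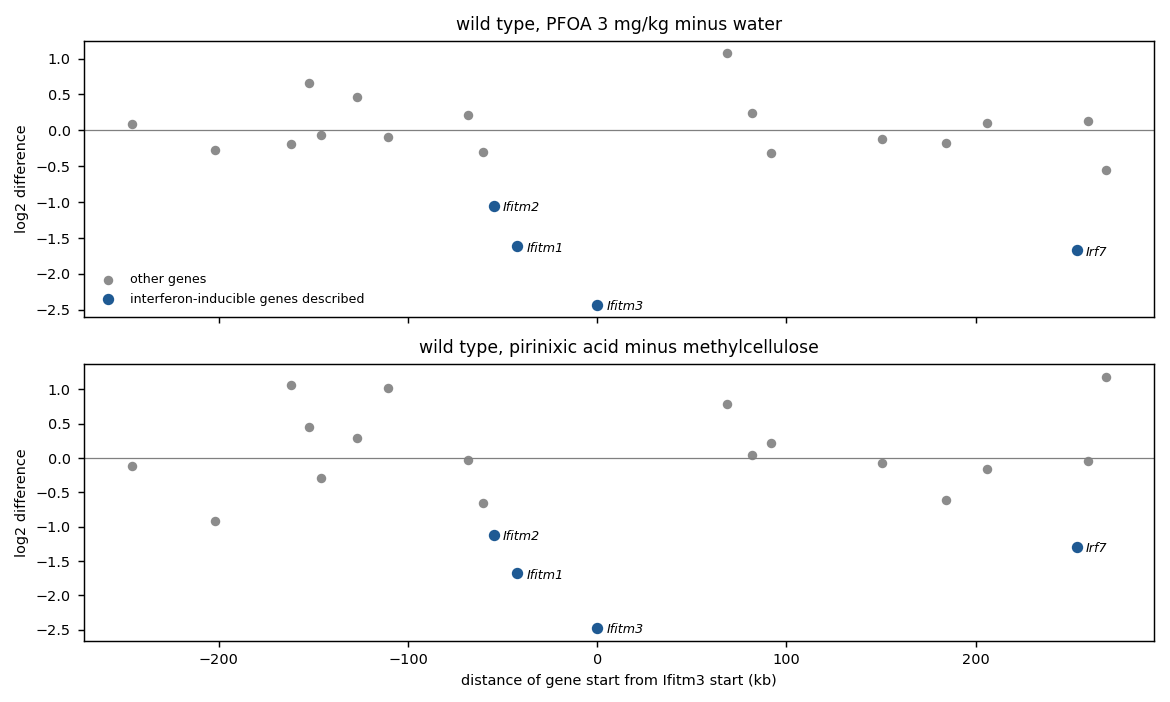
Log2 difference of treated minus vehicle in wild type (vertical) for the 21 genes measured within 300 kb of Ifitm3, against the distance of each gene's start from that of Ifitm3 in kb (horizontal). The 4 genes of the set (blue) are the lowest in both panels, and the 17 others (grey) span -0.55 to 1.07 with PFOA at 3 mg/kg.

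Over the 39 arrays the levels of 6859 named genes above the median of the tested probes were compared with Ifitm3. The closest were Ifitm1 (r = 0.988) and Ppp1r14a, an inhibitor of myosin phosphatase (r = 0.952). Ppp1r1b, an inhibitor of protein phosphatase 1 (r = 0.944), and the complement genes C8b (r = 0.943) and C1ra (r = 0.928) came next. These r hold the differences between groups, and within groups they were 0.856, 0.679, 0.632, 0.617 and 0.582. All of them include replicate 3 of wild type with PFOA at 1 mg/kg. The part of that array in the values of the genes other than Ifitm1 was not tested. Ppp1r1b had -1.95 with PFOA at 3 mg/kg and -2.13 with pirinixic acid in wild type. Those closest to Ifi27l2b were the peroxidase gene Prdx1 (r = 0.9003), Thnsl2 (r = 0.891), Acot1, an acyl-CoA thioesterase and PPARα target (r = 0.873), Pafah2 (r = 0.861) and Scamp5 (r = 0.855). Acot1 had a difference of 6.19 in wild type with PFOA at 3 mg/kg and 1.56 in null mice, beside 4.30 and 2.73 for Ifi27l2b. None of these nearest genes of Ifi27l2b was in the lists of interferon-inducible genes. Nor were those of Ifitm3, apart from Ifitm1, which is a gene of the set.

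The wider interferon system changed at few genes. Of 41 other type I interferon-inducible genes measured, 1 rose and 2 fell in wild type with PFOA at 3 mg/kg, 7.32% of the list, where 5.82% of all probes passed. The median of the list was -0.35, beside -0.02 for all probes. Ly6e, an interferon-induced surface protein, had 13.27 to 14.39, against 14.95 to 15.56 with water, and fell by 1.35 ± 0.26 on the log2 scale (adjusted p = 0.00133). Ifih1, the sensor of long viral RNA also called MDA5, fell by 1.12 ± 0.28 (adjusted p = 0.0116). Tor3a, a torsin-family ATPase induced by interferon, rose by 1.74 ± 0.50 (adjusted p = 0.0313), but stayed past the threshold in only 3 of 8 fits that each left out 1 array. With pirinixic acid 2 of the 41 fell, 4.88% of the list, where 6.1% of probes passed. When single arrays were left out, 1 to 4 of the 41 fell in either comparison. Adar, the RNA-editing enzyme, fell by 0.81 ± 0.18 (adjusted p = 0.00504), and Trim30a, a TRIM protein of mouse macrophages, fell by 0.86 ± 0.23 (adjusted p = 0.0207) and passed in 4 of 7 such fits.

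Of 26 genes of the interferon gamma response and antigen presentation, 1 fell with PFOA at 3 mg/kg in wild type, 3.85% of the list, where 5.82% of probes passed, and 0 passed with pirinixic acid, where 6.1% of probes did. Without replicate 1 of the pirinixic acid group 5 of the 26 fell, and 0 without any other single array. With PFOA at 3 mg/kg single arrays left out gave 0 to 2 that fell. Psmb8, a subunit of the immunoproteasome, had 11.99, 12.72, 11.82 and 12.003, against 13.26, 13.02, 13.09 and 13.16 with water, and fell by 0.999 ± 0.25 (adjusted p = 0.0114). The 4 treated arrays were all lower. The medians were -0.39 with PFOA at 3 mg/kg and -0.51 with pirinixic acid. Of 19 interferon, receptor and signalling genes, 1 rose and 1 fell with PFOA at 3 mg/kg, 10.5% of the list, where 5.82% of probes passed, and 1 fell with pirinixic acid, 5.26% of the list, where 6.1% of probes passed. Irf5, a transcription factor activated downstream of Toll-like receptors, had 9.88, 10.15, 8.21 and 9.49, against 11.72, 11.40, 11.27 and 11.32 with water, and fell by 1.998 ± 0.39 (adjusted p = 0.00142). With pirinixic acid Irf5 fell by 1.68 ± 0.42 (adjusted p = 0.0146), in 5 of 7 fits that each left out 1 array. Ifngr2, a chain of the interferon gamma receptor, rose by 0.93 ± 0.24 with PFOA at 3 mg/kg (adjusted p = 0.0137), in 5 of 8 such fits.

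In PPARα-null livers 0 of the 41, 26 and 19 genes of these lists passed with any treatment. Few probes of the whole array passed there. With PFOA at 3 mg/kg 0.0395% fell and 0.261% rose, at 1 mg/kg 0% and 0.0119%, and with pirinixic acid 0% did either. Nothing is read from the absence of calls in the lists. With PFOA at 3 mg/kg, 30 of the 41, 24 of the 26 and 12 of the 19 were below 0 in null livers. Their medians were -0.29, -0.32 and -0.005, beside -0.03 for all probes. In wild type at that dose 30, 22 and 14 were below 0. The null-minus-wild-type difference for pirinixic acid passed as higher at 1 of the 41 type I genes, where 0.696% of probes did. This was Ifi35 (0.74 ± 0.18, adjusted p = 0.0305, in 8 of 15 fits that each left out 1 array). For either PFOA dose 0 passed, where 0.083% of probes passed as higher at 3 mg/kg and 0% at 1 mg/kg. Irf5 had such a difference of 1.61 ± 0.56 with PFOA at 3 mg/kg (adjusted p = 0.253) and 1.84 ± 0.58 with pirinixic acid (adjusted p = 0.103). The lists' median for that contrast with pirinixic acid was 0.61 for the type I genes and 1.05 for the interferon gamma genes, beside 0.06 for all probes.

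**Figure D5:**
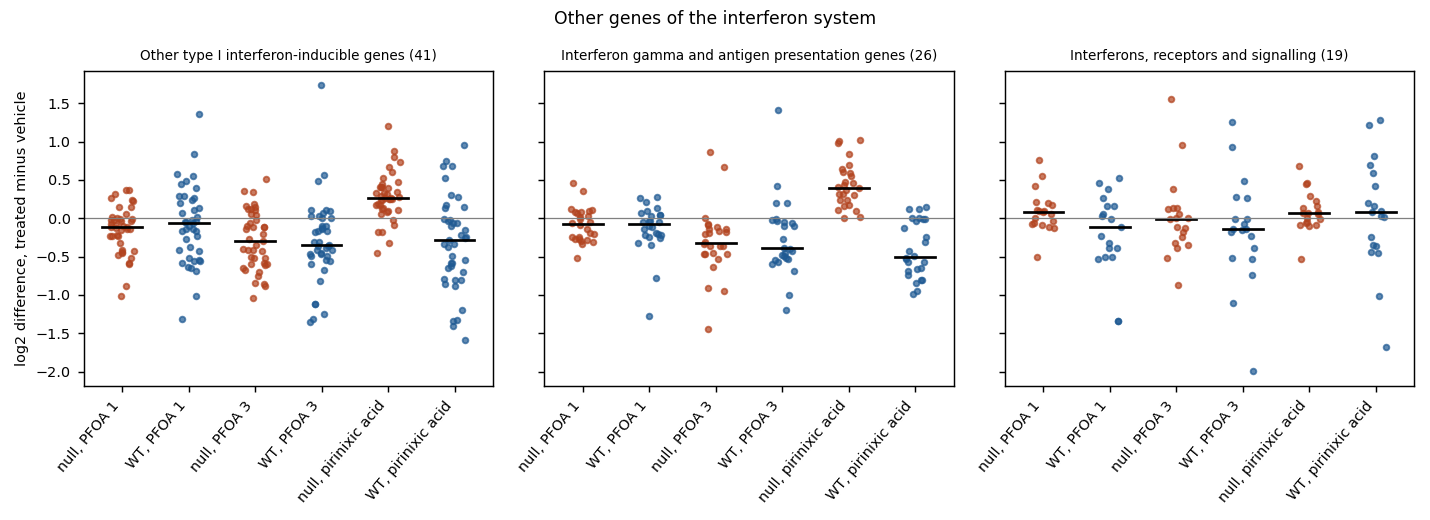
Log2 difference of treated minus vehicle (vertical) for each gene of 3 lists (points) in the 6 treated groups (horizontal, null in orange left of wild type in blue), with the list's median as a bar. In wild type with PFOA at 3 mg/kg the medians are -0.35, -0.39 and -0.14, and in null mice with pirinixic acid they are 0.27, 0.40 and 0.07.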

How the data were processed

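Total RNA from the 39 livers was hybridised to Applied Biosystems arrays, 1 array per mouse. The authors deposited log2 signals with equal quantiles on each array; the base is taken as 2 from their range (4.85 to 21.5), and the sources used here do not give the software or background correction. Of 33012 probes, 14411 have 1 gene symbol in the platform annotation, 247 several and 18354 none. The fit took the 25295 probes without missing values. It was made with limma 3.58.1 (R 4.3.3), a mean for each group and no added normalisation, and tested two-sided with Benjamini-Hochberg adjustment at 0.05 over all probes of a contrast. Correlations of deviations were tested with numpy 2.4.6. Both tests were tried on simulated data first. The genes, the gene lists and the contrasts were chosen with earlier results of these data known. Genes named beyond the set are those of the lists past the threshold (up to 4 per comparison), the 5 closest to Ifitm3 and to Ifi27l2b, and neighbours of the set. Odf3, Sigirr, Pkp3, Serpina10 and Prima1, and the markers Cyp4a14 and Ehhadh, were named after their values were seen. Alternatives were centring on or adjusting for silent genes, the array set or the replicate number as a block, an intensity trend, no dim probes, probes with missing values, only the compared groups, another probe of a gene, and single arrays left out (for counts of the marker lists, chosen after seeing the data). The number of arrays limits the precision. Same-numbered arrays were not paired: of 23 pairs 10 had r over 0.1 (-0.26 to 0.21). Promoters and positions are from RefSeq GRCm38.p6.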

Additional observations from a re-analysis of the deposited data

Results flagged for a closer look

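6 single arrays stood apart from the other 3 of their group by Dixon's test, among 63 groups examined, where chance gives about 1 in 20. Ifitm3 was 19.47 in null mice with water, replicate 1, against 18.94 to 19.02 on the others, and 19.04 in null mice with pirinixic acid, replicate 2, against 19.28 to 19.31. Ifitm1 was 16.94 in wild type with PFOA at 1 mg/kg, replicate 3, against 15.79 to 15.83. Ifitm2 was 18.34 in null mice with PFOA at 3 mg/kg, replicate 3, against 18.01 to 18.02, and 18.85 in null mice with water, replicate 1, against 18.44 to 18.48. Isg15 was 11.68 in null mice with methylcellulose, replicate 4, against 12.50 to 12.64.

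The response in null mice was set apart from that in wild type for 3 genes. With PFOA at 3 mg/kg the null-minus-wild-type difference was 2.001 for Ifitm3 and 1.18 for Ifitm1. With pirinixic acid it was 2.72 for Ifitm3, 1.78 for Ifitm1 and 1.90 for Irf7. The call of Irf7 (adjusted p = 0.0436) held in only 2 of 15 fits that each left out 1 array, and was lost in 4 of 8 other alternatives. Ifitm3 and Ifitm1 at 3 mg/kg, and Ifitm3 with pirinixic acid, rest on arrays that chose the genes and are given without a test. The tests of Ifitm1 and Irf7 with pirinixic acid share the wild-type arrays of that choice and are not independent of it.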

How the results depend on the processing

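No called difference changed sign under any alternative run. Centring on silent genes moved the median of all probes by 0.22 in wild type with PFOA at 3 mg/kg, 0.20 at 1 mg/kg and -0.12 with pirinixic acid, and gave Ifitm3 -2.21 at 3 mg/kg. With only the compared groups fitted, 2 genes were lower past the threshold at 3 mg/kg, 0 at 1 mg/kg, and 2 lower and 0 higher with pirinixic acid. At 1 mg/kg, centring left 0 and the silent-gene covariate or leaving out dim probes gave 2. Single arrays left out gave 0 to 2. For the null-minus-wild-type response, centring or probes with missing values left 1 higher at 3 mg/kg PFOA (1 to 2 over single arrays), single arrays gave 0 to 1 higher at 1 mg/kg, and with pirinixic acid the replicate block, no dim probes or the intensity trend made 1 gene lower (0 to 1 over single arrays), Ifi27l2b, whose wild-type arm chose it. The replicate block also took Ifit1 past the threshold there (1.69, adjusted p = 0.0382), and changed no other count of calls. The second Ifitm1 probe gave 0.17 in that contrast (adjusted p = 0.928). Irf7 lost its call there in 4 of 8 alternatives (adjusted p 0.0181 to 0.167). The median r over all pairs, pairs without and pairs with Ifi27l2b was 0.239, 0.314 and -0.10 by Spearman, and 0.214, 0.353 and -0.093 without the 2 farthest arrays. Leaving out single arrays gave 0.185 to 0.428, 0.333 to 0.534 and -0.252 to -0.119, the lowest over all pairs and over pairs without Ifi27l2b being without replicate 3 of wild type at 1 mg/kg.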

Other observations

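In null mice the wider interferon genes leaned upward with pirinixic acid without a single call. All 26 genes of the interferon gamma and antigen presentation list were above 0 (0.01 to 1.02, median 0.40), as were 35 of 41 type I genes (median 0.27) and all 9 Kupffer cell markers (median 0.40), beside a median of 0.02 for all tested probes. By limma 0 probes of the array passed in that comparison, and 691 had an unadjusted p under 0.05. The methylcellulose controls of these mice lay below the water controls for 35 of the 41 type I genes (median -0.31) and 20 of the 26 interferon gamma genes (median -0.21), again with 0 calls, beside -0.07 for all probes and 2931 probes at an unadjusted p under 0.05. The set itself was below 0 for all 7 genes between those controls, though Ifitm1 and Ifitm2 turned positive with the silent-gene index as a covariate. In wild type with pirinixic acid the same lists leaned downward. There 22 of the 26 interferon gamma genes (median -0.51), 31 of the 41 type I genes (median -0.29) and 8 of the 9 Kupffer cell markers (median -0.64) were below 0. The median of all tested probes was -0.03.

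Replicate 3 of wild type with PFOA at 1 mg/kg was also high for Irf5 (12.4, against 10.2 to 10.6 on the other arrays of its group) and for Psmb8 (13.6, against 12.3 to 12.8).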
